A study of Bos indicus with 12 samples.

Results

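The 38 genes described here drive cells through G2 and mitosis, and they were examined in the corpus luteum (CL), the progesterone-secreting gland that forms from the ruptured ovarian follicle. They were taken as a named list from a table of 15178 genes, by gene symbol, and all 38 have a row. Poly-A RNA was sequenced from the CL of 12 non-lactating Bos indicus cows slaughtered on day 18 of a synchronized cycle, 1 library per cow. The 6 pregnant (P) cows, numbers 1, 18, 19, 27, 28 and 29, had been inseminated, and pregnancy was established in the study by an elongated embryo in the uterine flush. The 6 non-pregnant (NP) cows are numbers 5, 22, 30, 31, 32 and 42, all on the same day and with a functional CL. Whether the NP cows had been left without insemination, or inseminated without conceiving, is not stated outright in the study. Its methods use the word cyclic for a synchronized group left without insemination, and its discussion calls the CL used for comparison cyclic. The comparison asks how far the RNA of dividing cells differs between the CL of P and NP cows.

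Cells enter mitosis when cyclin A and cyclin B activate the kinase CDK1, with CDC25 phosphatases removing its inhibitory phosphates and PLK1 reinforcing the switch. The transcription factors FOXM1 and MYBL2, which act with the MuvB complex, switch on most of these genes late in the cycle, so that their transcripts are abundant only in cells that are dividing. Large steroidogenic luteal cells have left the cycle, while endothelial cells, pericytes, fibroblasts and immune cells of the gland can divide. In RNA from whole tissue, fewer or more cells of a type and less or more RNA per cell cannot be told apart.

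The values given are the deposited normalized counts, that is read counts per gene divided by a size factor of the library, and they are not adjusted for gene length, so that levels are compared between cows and not between genes. The reads behind them, recovered from the size of 1 step in each library, came to 2038858 to 7534503 in P libraries and 6148184 to 8253360 in NP libraries. The libraries with the fewest reads were P cows 28, 18 and 1. The summed normalized counts of 6 steroidogenic luteal markers were 185199 to 276562 in P and 153297 to 286864 in NP, which fits the labelled tissue. The mitotic genes were low in these libraries, with 21 of the 38 supported by fewer than 10 reads in at least 1 cow, and counting error is a large part of those values. Fold changes, with P over NP, are differences of the mean log2(value + 1), where the added 1 makes the change of low genes smaller. They were tested with limma for the 11907 genes that reached 30 normalized counts in any cow, and p was adjusted by Benjamini-Hochberg over all of them.

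P cow 1 stood apart from the other P cows, and most results are therefore given with and without it. It held the highest value of all 12 cows for 36 of the 38 genes (94.7%), against 11.8% of all tested genes. The exceptions were CDK1, highest in P cow 28, and MAD2L1, highest in NP cow 22. The summed normalized counts of the 38 genes were 4228 in P cow 1, 1174 to 1922 in the other P cows and 894 to 1468 in the NP cows. The mean sum was 2063 ± 1092 in P and 1182 ± 201 in NP (SD, n = 6 each), and without P cow 1 it was 1629 ± 289 in P (SD, n = 5). P cows 18, 27, 28 and 29 lay above every NP cow, and P cow 19 alone overlapped with the NP cows, lying below 3 of them.

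**Figure D1:**
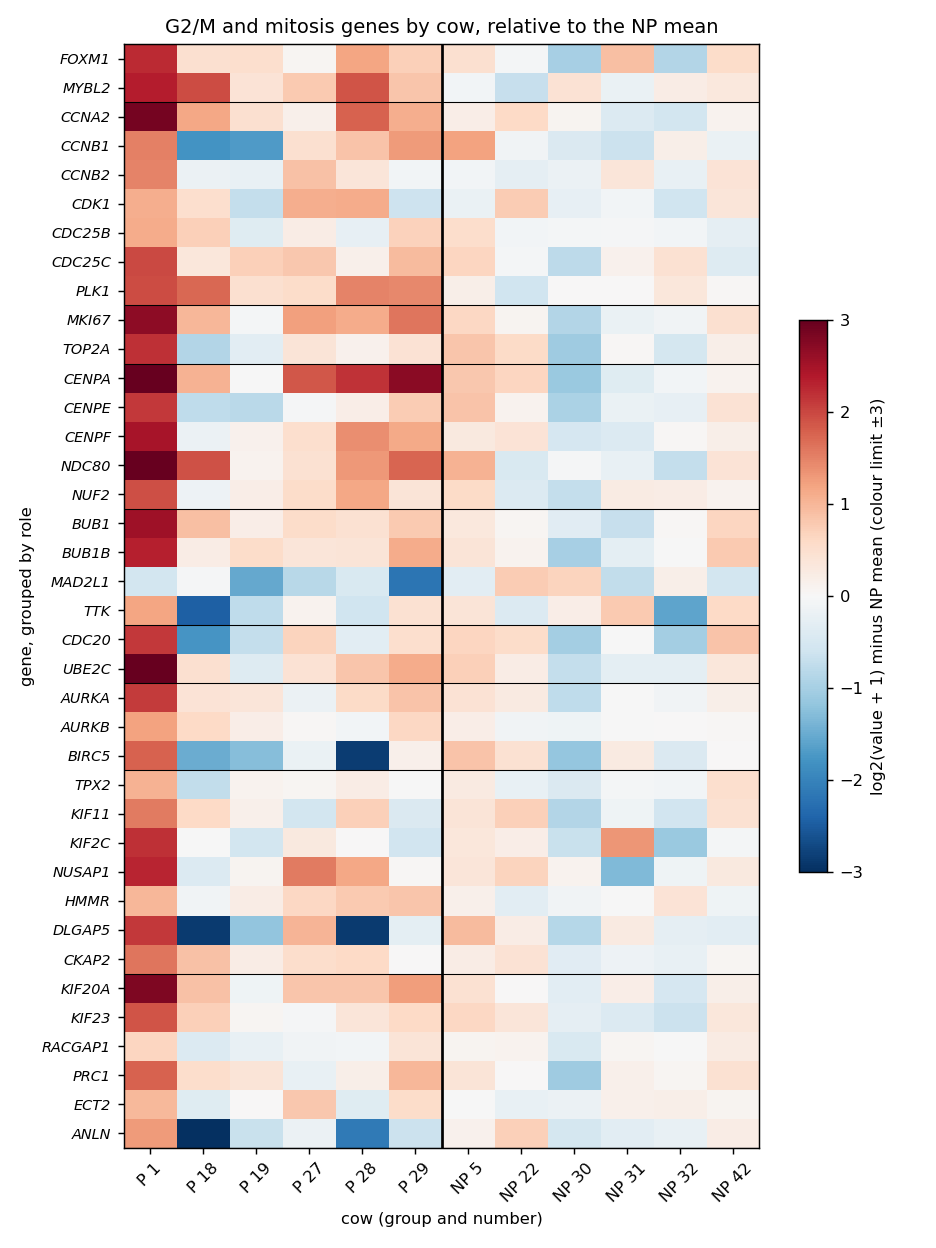
Heat map of the 38 genes (rows, grouped by role) in the 12 cows (columns, P left of NP), where the colour is log2(value + 1) minus the mean of the NP cows for that gene, limited to ±3. The column of P cow 1 is the darkest red, with a median of 2.12 over the 32 tested genes, against 0.07 to 0.70 in the other P cows. Of these 32 genes, 8 reached the minimum for testing only in P cow 1.

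Of the 38 genes, 32 were abundant enough to be tested, and 7 of these (21.9%) were higher in P (limma adjusted p under 0.05, log2 fold change 0.58 or more), where 12% of all tested genes were. None of the 32 was lower in P, where 14.8% of all tested genes were, and 25 did not pass. At an unadjusted p below 0.05 there were 11 (34.4%), all of them with a positive fold change, against 46.1% of all tested genes. The 7 genes are PLK1, MYBL2, MKI67, CENPA, CCNA2, KIF20A and NDC80. Of the 32, 11 reached the minimum value only in P cows, 8 of them only in P cow 1, so that their presence in the test depended on a high value in P. Among the 21 that reached it in an NP cow, 4 were higher in P, with a median log2 fold change of 0.60. With no minimum, all 38 could be tested and the same count of 7 passed, against 9.55% of 15178 genes.

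The direction was more uniform than the calls. The log2 fold change was above 0 for 29 of the 32 tested genes (90.6%), against 49.3% of all tested genes, with medians of 0.62 and -0.01. Over all 38 genes it was above 0 for 33 (86.8%), with a median of 0.58, against 47.1% of all 15178 genes. For 26 of the 38 (68.4%) it was above 0 without P cow 1, with a median of 0.36, against 46.5% of all 15178 genes. Groups that did not overlap at all were rare, since only PLK1 had every P cow above every NP cow (3.12% of the 32, against 6.21% of all tested genes). At least 5 P cows lay above all NP cows for 5 genes, namely PLK1, MYBL2, MKI67, CENPA and KIF20A, a pattern held by 13.3% of all tested genes.

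**Figure D2:**
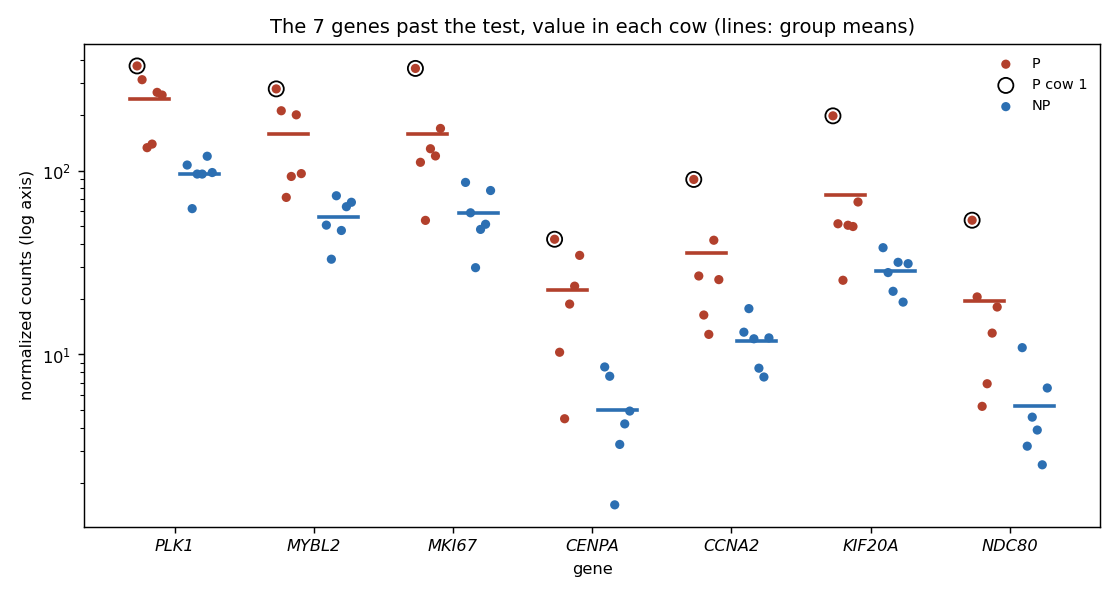
Normalized counts (log axis) of the 7 genes past the test in each of 6 P (red) and 6 NP cows (blue), with lines for the group means and P cow 1 circled. P cow 1 is the highest point of every gene, and P and NP points are fully apart for PLK1 alone.

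Of the transcription factors of the G2/M programme, MYBL2 was higher in P. MYBL2 (B-Myb) acts with the MuvB complex and FOXM1 in switching on the late cell cycle genes. It was measured at 279, 212, 71.5, 93.0, 201 and 96.4 normalized counts in P cows 1, 18, 19, 27, 28 and 29, against 50.5, 33.0, 73.0, 47.3, 63.7 and 67.3 in NP cows 5, 22, 30, 31, 32 and 42. The 3 high values were those of P cows 1, 18 and 28, the shallowest libraries, and only P cow 19 fell within the NP range. The mean was 159 ± 83.4 in P and 55.8 ± 14.9 in NP (SD, n = 6 each), a log2 fold change of 1.36 (limma, SE 0.32, adjusted p = 0.00572). It was 1.17 without P cow 1 (adjusted p = 0.0125) and 0.67 without P cows 1, 18 and 28 (adjusted p = 0.0965). FOXM1, the forkhead factor that activates the cyclin B and kinetochore genes, was lower in reads, with 5 to 27 per library. Its lowest, median and highest values were 8.91, 13.8 and 44.0 in P and 3.80, 10.3 and 16.8 in NP. Only P cows 1 and 28 lay above the NP range, and the log2 fold change of 0.86 (SE 0.46) did not pass (limma adjusted p = 0.154).

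Among the cyclins, CDK1 and its activators, PLK1 and CCNA2 were higher in P. PLK1, the polo-like kinase that acts at mitotic entry, at centrosomes and at kinetochores, had the smallest p of the 38. Its values were 371, 313, 133, 139.5, 267 and 258 normalized counts in P cows 1, 18, 19, 27, 28 and 29, against 107, 62.15, 95.8, 95.8, 119.8 and 97.7 in NP cows 5, 22, 30, 31, 32 and 42. The lowest P value, in P cow 19, was above the highest NP value, in NP cow 32. The mean was 247 ± 94.6 in P and 96.4 ± 19.2 in NP (SD, n = 6 each), with a log2 fold change of 1.27 (limma, SE 0.25, adjusted p = 0.00244). It was 1.14 without P cow 1 (adjusted p = 0.00569) and 0.83 without P cows 1, 18 and 28 (adjusted p = 0.0473), which made PLK1 the one member that passed in those 9 cows.

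CCNA2 (cyclin A2) pairs with CDK2 in S phase and with CDK1 in G2. It was measured at 89.6, 26.7, 16.4, 12.9, 41.8 and 25.5 normalized counts in P cows 1, 18, 19, 27, 28 and 29, against 13.2, 17.8, 12.2, 8.42, 7.54 and 12.3 in NP cows 5, 22, 30, 31, 32 and 42. P cows 19 and 27 lay within the NP range and the other 4 above it. CCNA2 reached the minimum for testing only in P cows, and it passed with no minimum (limma adjusted p = 0.033). The mean was 35.5 ± 28.3 in P and 11.9 ± 3.67 in NP (SD, n = 6 each), a log2 fold change of 1.25 (limma, SE 0.42, adjusted p = 0.0308). The call rested on single cows, since the fold change was 0.93 without P cow 1 (adjusted p = 0.0604), 1.15 without P cow 28 (0.065), 1.17 without NP cow 31 (0.0623) and 1.14 without NP cow 32 (0.0604).

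The core of the mitotic switch itself was scarce. CDK1, the mitotic kinase, had 4 to 16 reads per library and was below the minimum for testing. Its lowest, median and highest values were 2.98, 10.5 and 13.1 normalized counts in P and 3.35, 4.92 and 10.2 in NP. P cows 1, 27 and 28 were above the NP range, P cows 19 and 29 below it, and the log2 fold change without a minimum was 0.41 (SE 0.43, limma adjusted p = 0.501). CCNB1 (cyclin B1), its main partner at mitotic entry, ran at 2.06, 16.1 and 29.3 in P and 5.83, 8.55 and 23.3 in NP, again below the minimum. It was read 1 time in P cow 18 and 3 times in P cow 19, and the log2 fold change was 0.11 (SE 0.59, limma adjusted p = 0.906). CCNB2 (cyclin B2) had medians of 15.7 in P and 12.7 in NP and did not pass, with a log2 fold change of 0.38. The phosphatases that activate CDK1 did not pass either. CDC25B had a median of 81.5 in P and 56.0 in NP, with a log2 fold change of 0.35, and P cow 19 was the lowest of all 12 cows. CDC25C, below the minimum with 2 to 13 reads, had medians of 8.55 in P and 4.81 in NP, and a log2 fold change of 0.82 without a minimum (limma adjusted p = 0.128).

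Of the proteins of chromosome structure, MKI67 was higher in P. MKI67 (Ki-67) coats mitotic chromosomes and is the usual marker of cycling cells in tissue. It was measured at 360.0, 111, 53.6, 132, 120.25 and 169.7 normalized counts in P cows 1, 18, 19, 27, 28 and 29, against 86.3, 59.0, 29.7, 47.9, 51.1 and 78.0 in NP cows 5, 22, 30, 31, 32 and 42. P cow 1 was far above the rest, and P cow 19 alone lay within the NP range. The mean was 158 ± 106 in P and 58.7 ± 20.7 in NP (SD, n = 6 each), with a log2 fold change of 1.26 (limma, SE 0.36, adjusted p = 0.0159). It was 0.97 without P cow 1 (adjusted p = 0.0289) and 0.93 without P cows 1, 18 and 28 (adjusted p = 0.12). TOP2A, the topoisomerase that untangles sister chromatids, is the other common proliferation marker and did not follow MKI67 in the comparison. Its lowest, median and highest values were 22.6, 51.7 and 199 in P and 19.8, 45.9 and 76.2 in NP. Only P cow 1 exceeded the NP range. The log2 fold change was 0.33 (SE 0.44, limma adjusted p = 0.578) with all cows and -0.05 without P cow 1.

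Among the centromere and kinetochore genes, CENPA and NDC80 were higher in P. CENPA is the histone H3 variant that marks the centromere. It was measured at 42.35, 10.3, 4.47, 18.8, 23.5 and 34.6 normalized counts in P cows 1, 18, 19, 27, 28 and 29, against 8.55, 7.61, 1.52, 3.24, 4.19 and 4.92 in NP cows 5, 22, 30, 31, 32 and 42. The 2 to 42 reads behind these values were few, and P cow 19 again was the P cow within the NP range. CENPA reached the minimum for testing only in P cows, and it passed with no minimum (limma adjusted p = 0.0159). The mean was 22.3 ± 14.3 in P and 5.00 ± 2.66 in NP (SD, n = 6 each), and the log2 fold change of 1.79 (limma, SE 0.54, adjusted p = 0.0196) was the highest of the 32 genes tested. It was 1.55 without P cow 1 (adjusted p = 0.0422) and 1.61 without P cow 29 (adjusted p = 0.0504). After all libraries were thinned to the smallest one, in 1 random draw, it was 0.93 (limma, SE 0.82, adjusted p = 0.399).

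NDC80, the subunit of the outer kinetochore that binds microtubules, stood nearest to the threshold of the 7. Its values were 53.75, 20.6, 5.22, 6.93, 13.1 and 18.1 normalized counts in P cows 1, 18, 19, 27, 28 and 29, against 10.9, 3.17, 4.56, 3.88, 2.51 and 6.57 in NP cows 5, 22, 30, 31, 32 and 42. P cows 19 and 27 lay within the NP range. NDC80 reached the minimum for testing only in P cow 1, and it passed with no minimum (limma adjusted p = 0.039). The mean was 19.6 ± 17.8 in P and 5.26 ± 3.09 in NP (SD, n = 6 each), with a log2 fold change of 1.46 (limma, SE 0.54, adjusted p = 0.0478). Leaving out any of 9 cows ended the call, all but P cows 19 and 27 and NP cow 5. Without P cow 1 the fold change was 1.10 (adjusted p = 0.0986), and over the other 8 cows left out in turn the adjusted p was 0.0579 to 0.087. NUF2, which forms a dimer with NDC80, had medians of 28.9 in P and 23.2 in NP, with a log2 fold change of 0.68 (limma, SE 0.35, adjusted p = 0.144). CENPF, a large protein of the outer kinetochore and nuclear envelope, had medians of 56.0 in P and 32.7 in NP and did not pass, with a log2 fold change of 0.91 (limma, SE 0.38, adjusted p = 0.0721). It passed with edgeR (1.15, adjusted p = 0.0329), and was 0.67 with edgeR without P cow 1 (adjusted p = 0.107). CENPE, the kinesin that carries chromosomes to the metaphase plate, had medians of 12 in P and 10.9 in NP. Its log2 fold change of 0.25 became -0.13 without P cow 1.

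None of the spindle checkpoint genes, which hold back anaphase until every chromosome is attached, passed the test. BUB1, a checkpoint kinase, had a lowest, median and highest value of 23.8, 33.5 and 125 in P and 12.3, 21.2 and 32.8 in NP. P cow 1 stood far above the other P cows, and the log2 fold change was 0.91 (SE 0.37, limma adjusted p = 0.0683). It passed with edgeR (1.11, adjusted p = 0.046), and was 0.54 with edgeR without P cow 1 (adjusted p = 0.171). BUB1B (BUBR1), part of the complex that inhibits CDC20, had medians of 24.8 in P and 18.3 in NP, with a log2 fold change of 0.83 (limma, SE 0.39, adjusted p = 0.11). MAD2L1 (MAD2) belongs to the same inhibitory complex and ran the other way. Its lowest, median and highest values were 2.47, 8.84 and 14.4 in P and 8.42, 14.2 and 26 in NP. P cows 19, 27 and 29 were below all NP cows, P cow 1 at 9.77 was not high, and with no minimum the log2 fold change was -0.94 (SE 0.42, limma adjusted p = 0.107). TTK (MPS1), the kinase that starts checkpoint signalling, had 0 to 13 reads, with medians of 3.78 in P and 5.77 in NP. It had no read in P cow 18, where a count of 0 allows up to 3 reads or 6.17 normalized counts.

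The partners of the anaphase-promoting complex, which destroys cyclin B and securin, did not pass. CDC20, its activator, had medians of 18.5 in P and 20.5 in NP, and its log2 fold change of 0.09 became -0.32 without P cow 1. P cow 18 had the lowest CDC20 value of all cows, 4.11 normalized counts or 2 reads. UBE2C, the ubiquitin-conjugating enzyme of the complex, was 199 in P cow 1 and 16.4 to 47.8 in the other P cows, against 12.9 to 36.5 in NP cows. The log2 fold change was 0.93 (SE 0.47, limma adjusted p = 0.128), and 54.8% of the summed P value came from P cow 1. It passed with DESeq2 but not with edgeR.

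The Aurora kinases and survivin, which build the spindle and correct faulty attachments, were also without a call. AURKA, the kinase of spindle poles, had medians of 19.7 in P and 14.6 in NP, with a log2 fold change of 0.69 (limma, SE 0.37, adjusted p = 0.158). AURKB, the catalytic subunit of the chromosomal passenger complex, had medians of 55.7 in P and 41.7 in NP, with a log2 fold change of 0.43 (limma, SE 0.22, adjusted p = 0.145). The NP cows were close together for AURKB, between 38 and 48.2, and P cows 1, 18 and 29 were above them. BIRC5 (survivin), which recruits AURKB to the centromere, had a lowest, median and highest value of 2.61, 15.7 and 88.0 in P and 10.7, 27.9 and 45.9 in NP. P cow 1 was above all NP cows, while P cows 18, 19 and 28 were below all of them, and the log2 fold change was -0.65 (SE 0.62, limma adjusted p = 0.42). With all cows it was -0.07 with edgeR and -0.05 with DESeq2, and without P cow 1 it was -0.87 with edgeR.

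Spindle motors and microtubule proteins had 6 tested genes with no call. HMMR, a microtubule-binding protein of spindle poles, had medians of 91.4 in P and 53.7 in NP, 4 P cows above the NP range and a small spread. Its log2 fold change of 0.55 (limma, SE 0.21, adjusted p = 0.0536) was below the fold minimum. CKAP2, a microtubule stabilizer, had medians of 125 in P and 82.5 in NP, with a log2 fold change of 0.64 (limma, SE 0.24, adjusted p = 0.0505). It passed with edgeR (0.69, adjusted p = 0.0419) and was 0.42 with edgeR without P cow 1 (adjusted p = 0.115). NUSAP1, which bundles spindle microtubules near chromosomes, had medians of 19.0 in P and 13.1 in NP and a log2 fold change of 0.79 (limma adjusted p = 0.214). TPX2, which activates AURKA on the spindle, and KIF2C (MCAK), which takes microtubules apart at the centromere, had fold changes near 0. They were 0.11 for TPX2 and 0.23 for KIF2C, and -0.07 and -0.16 without P cow 1. KIF11, the motor that pushes spindle poles apart, was below the minimum, with medians of 12.4 in P and 10.4 in NP. DLGAP5 (HURP), which stabilizes fibres at the kinetochore, was at 31.0 in P cow 1 and had no read in P cows 18 and 28, where a count of 0 allows up to 6.17 and 7.84 normalized counts. Its medians were 3.59 in P and 6.32 in NP, and the log2 fold change of -0.68 (limma, SE 0.83, adjusted p = 0.538) changed sign with edgeR, at 0.32.

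Among the genes of the central spindle and cytokinesis, KIF20A was higher in P. KIF20A (MKLP2) is the kinesin that brings AURKB to the midzone. It was measured at 199, 51.4, 25.3, 50.5, 49.7 and 67.5 normalized counts in P cows 1, 18, 19, 27, 28 and 29, against 38.1, 27.9, 22.1, 31.7, 19.3 and 31.2 in NP cows 5, 22, 30, 31, 32 and 42. P cow 1 was well above the other P cows, and P cow 19 was within the NP range. The mean was 73.9 ± 62.6 in P and 28.4 ± 6.88 in NP (SD, n = 6 each), with a log2 fold change of 1.08 (limma, SE 0.37, adjusted p = 0.0366). The call was lost without P cow 1 (0.73, adjusted p = 0.056) or P cow 29 (1.04, 0.066), and without NP cow 22 (1.08, 0.0622), 30 (1.02, 0.065), 31 (1.12, 0.0515) or 32 (0.98, 0.0712).

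The other genes of the midzone and the contractile ring did not pass. KIF23 (MKLP1) and RACGAP1 form the centralspindlin complex, and their log2 fold changes were 0.60 for KIF23 and 0.04 for RACGAP1. RACGAP1 had medians of 77.8 in P and 86.7 in NP, and its fold change was -0.08 without P cow 1. PRC1, which bundles the midzone microtubules, had medians of 60.6 in P and 47.3 in NP and a log2 fold change of 0.60 (limma adjusted p = 0.159). ECT2, the exchange factor that activates RhoA at the cleavage furrow, had medians of 63.2 in P and 51.9 in NP, with a log2 fold change of 0.27. ANLN (anillin), a scaffold of the contractile ring, had 37.5 normalized counts in P cow 1, against 0 to 12.9 in the other P cows and 9.89 to 24.7 in NP cows. P cows 18, 19, 28 and 29 lay below every NP cow, and P cow 18 had no read, which allows up to 6.17 normalized counts. The log2 fold change of -1.05 (limma, SE 0.69, adjusted p = 0.241) was the lowest of the 32 genes.

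**Figure D3:**
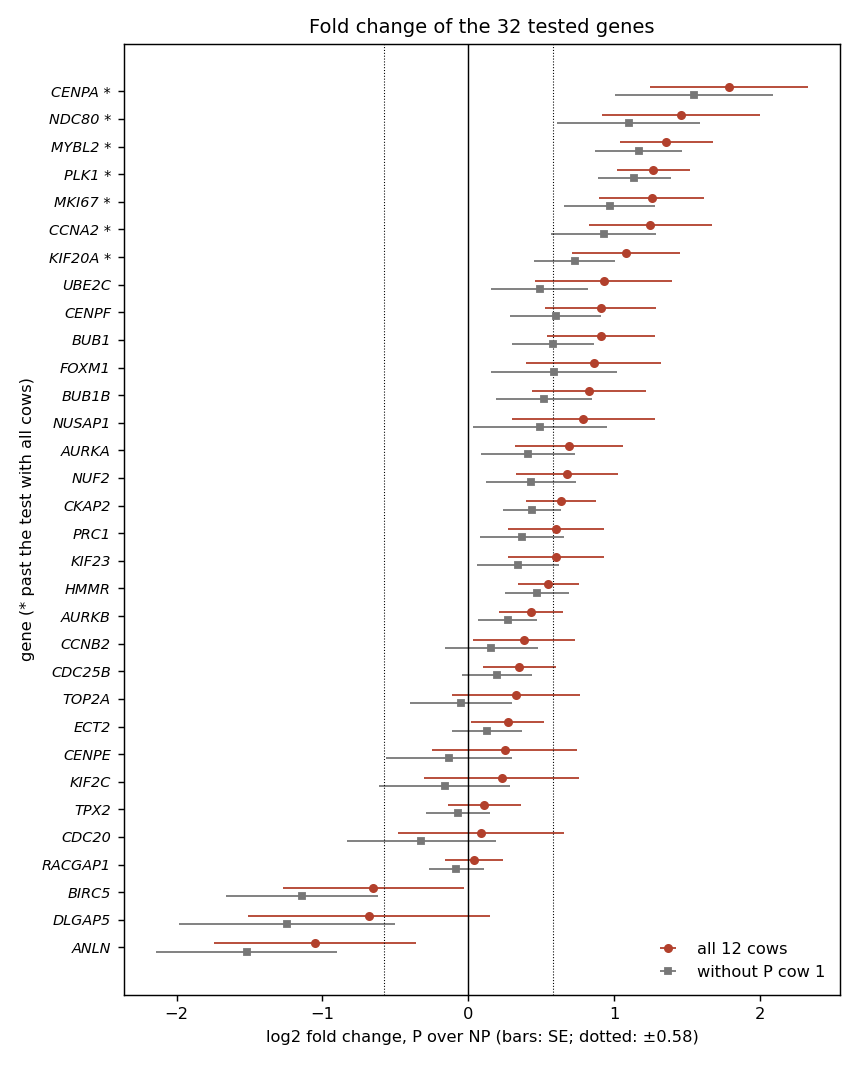
Log2 fold change of the 32 tested genes, P over NP, with SE bars from limma, for all 12 cows (red circles) and without P cow 1 (grey squares), with dotted lines at ±0.58 and an asterisk for genes past the test. Values run between -1.05 for ANLN and 1.79 for CENPA, and every grey square lies to the left of its red circle.

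Leaving out P cow 1 thus reduced the calls to 4, namely PLK1, MYBL2, MKI67 and CENPA, against 10.9% of all genes called higher in the same 11 cows. By the count tests on recovered reads, 10 members were higher with edgeR (12.1% of all genes) and 12 with DESeq2 (14% of all genes), and without P cow 1 these were 4 with edgeR (10.9%) and 6 with DESeq2 (12.5%). Only PLK1 passed without P cows 1, 18 and 28, where 4.01% of all genes were called higher. CENPA was lost again without P cow 29, while PLK1, MYBL2 and MKI67 kept their call when any single cow was left out. The depth of the libraries also moved with the group, with a median of 4392938 reads in P and 6996792.5 reads in NP. With the library total, on the log2 scale, added as a covariate none of the 32 passed, with 2 at an unadjusted p below 0.05, and 1.53% of all genes were called higher. PLK1 then had a log2 fold change of 0.81 (limma adjusted p = 0.0781). With all libraries thinned to 2038858 reads, in 1 random draw, 6 genes passed, against 11.1% of all genes. They were PLK1, MYBL2, MKI67, KIF20A, NDC80 and CENPF. The part of depth in the differences between P and NP cannot be told apart further in this design, since the 3 shallowest libraries are all from P cows.

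The genes moved together from cow to cow. Over the 496 pairs of the 32 tested genes, the median Pearson correlation of log2 values, centred on the mean of each group, was 0.62 over 12 cows, and 72.6% of pairs were above 0.5, against 9.51% of pairs of all tested genes. The values rested in part on 1 animal, since without P cow 1 the median was 0.33 over 11 cows and 29.0% of pairs were above 0.5, against 11% for all genes. That cow also shaped the set, since 8 of the 32 genes reached the minimum for testing only there. Within the groups the median was 0.71 over the 6 P cows and 0.49 over the 6 NP cows. Over the 5 P cows without P cow 1 it was 0.26, with 29.6% of pairs above 0.5, against 22.8% for all genes, so that the order of P and NP turned with that cow. With libraries thinned to equal depth it was 0.54, and for the 17 genes averaging 30 or more it was 0.63. These correlations are descriptions. The pairs share the same libraries and size factors, and low counts pull r towards 0.

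The NP cows also differed among themselves. NP cow 30 had only 4 of the 32 tested genes above the NP mean, and the median difference of these 32 genes was -0.47 on the log2 scale. NP cows 5 and 42 had 29 and 28 of the 32 above it, with median differences of 0.38 and 0.20. P cow 19 had the lowest sum of the P cows and a median difference of 0.07, within the range of the NP cows.

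UBE2C (median r with the other genes 0.77), CENPE (0.76), KIF20A (0.76) and TOP2A (0.74) stood in the centre of the correlated block. CENPE and TOP2A were thus close to the other genes from cow to cow and did not pass the test between P and NP. MYBL2 and PLK1, the genes with the smallest p in the comparison, were the least correlated with the rest, with medians of 0.31 for MYBL2 and 0.40 for PLK1. These medians were -0.05 for MYBL2, 0.16 for PLK1 and 0.55 for TOP2A without P cow 1. MYBL2 and PLK1 correlated with each other, at 0.853 over 12 cows and 0.802 without P cow 1, a pair singled out after its values were seen and given with no test. Without P cow 1, MYBL2 ran against ANLN (-0.816) and DLGAP5 (-0.738), whose lowest values were in P cows 18 and 28, the cows with high MYBL2 and few reads.

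**Figure D4:**
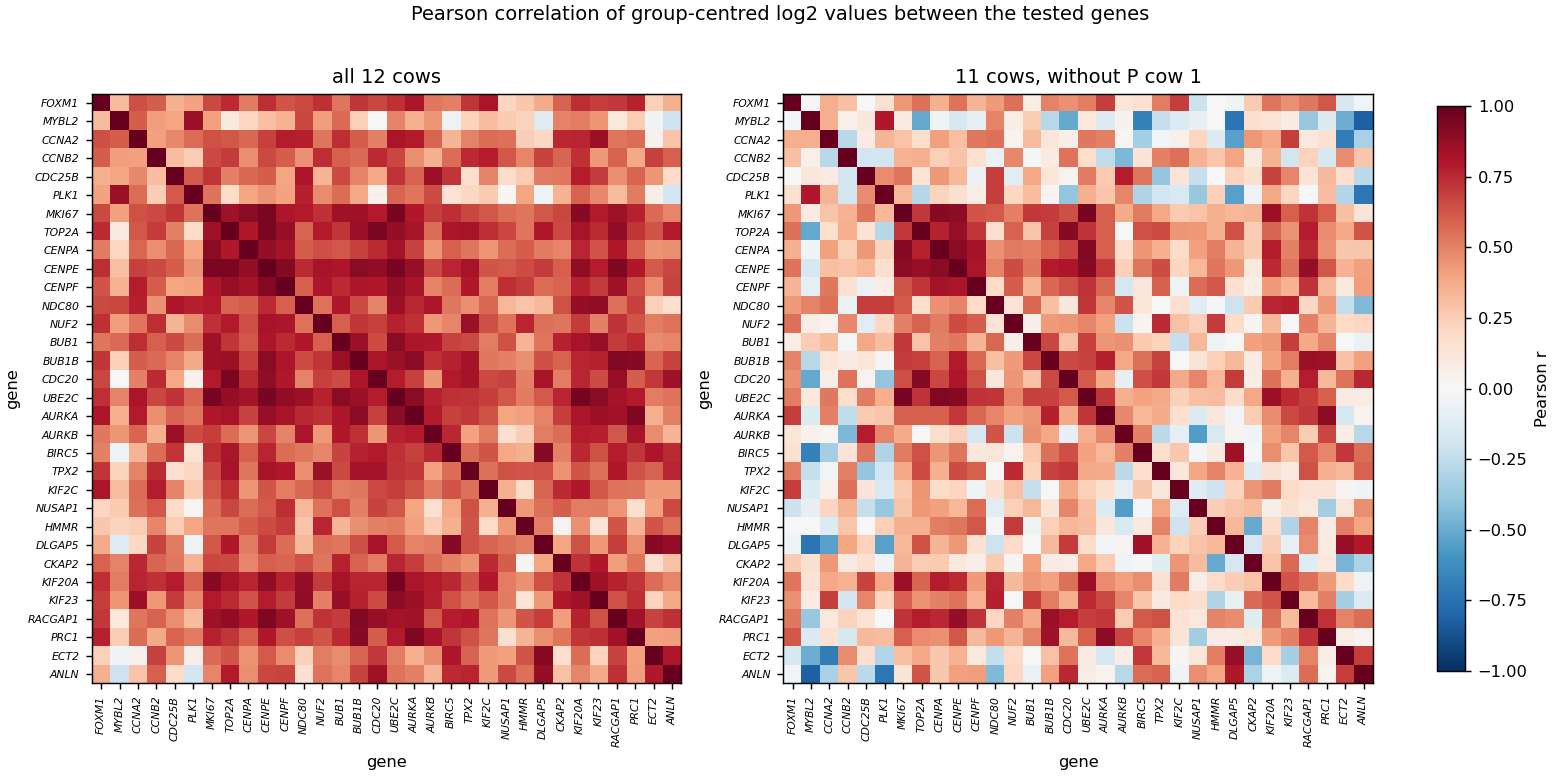
Pearson correlations between the 32 tested genes (both axes, ordered by role) of log2 values centred on each group's mean, over 12 cows on the left and 11 cows without P cow 1 on the right. The left map is nearly all red, with a median of 0.62, and the right map is paler, with a median of 0.33 and many blue cells in the row of MYBL2, whose median is -0.05.

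For 8 pairs of known partners, correlations were tested within each group, 16 in all, with a two-sided exact permutation test that can reach 0.00139 at 6 cows. None passed after Benjamini-Hochberg adjustment, the smallest adjusted p of Pearson's r being 0.215. MKI67 and TOP2A had r = 0.84 (exact permutation p = 0.0681, adjusted p = 0.215) and rho = 0.94 (p = 0.0167, adjusted p = 0.267) in P, and r = 0.87 (p = 0.025, adjusted p = 0.215) and rho = 0.89 (p = 0.0333, adjusted p = 0.267) in NP. Without the 2 cows farthest from the median of MKI67, r was 0.72 in P and 0.43 in NP. CDC20 and UBE2C, which act in the same ubiquitin ligase, had r = 0.78 in P (exact permutation p = 0.0806, adjusted p = 0.215) and 0.87 in NP (p = 0.0389, adjusted p = 0.215), with rho = 0.54 (p = 0.297, adjusted p = 0.528) in P and 0.77 (p = 0.103, adjusted p = 0.329) in NP. Without the 2 farthest cows r was 0.62 in P and 0.82 in NP. NDC80 and NUF2, a stable dimer, had r = 0.59 in P (exact permutation p = 0.222, adjusted p = 0.296) and 0.43 in NP (p = 0.41, adjusted p = 0.439), with rho = 0.26 (p = 0.658, adjusted p = 0.702) in both groups. Without the 2 farthest cows, P cow 1 among them in P, r for this dimer was -0.47 in P and 0.28 in NP. CDK1 and CCNB1 had r = 0.38 in P (exact permutation p = 0.411, adjusted p = 0.439) and -0.22 in NP (p = 0.681, adjusted p = 0.681), the only negative value of the 16. Their rho was 0.43 in P (p = 0.419, adjusted p = 0.61) and -0.20 in NP (p = 0.714, adjusted p = 0.714), and without the 2 farthest cows r was 0.96 in P and -0.20 in NP. The other 4 pairs, namely AURKA with TPX2, AURKB with BIRC5, KIF23 with RACGAP1 and KIF20A with PRC1, had r of 0.71 to 0.80 in P (exact permutation p of 0.0583 to 0.121, adjusted p of 0.215 to 0.22) and 0.47 to 0.69 in NP (p of 0.124 to 0.383, adjusted p of 0.22 to 0.439). Their rho was 0.37 to 0.77 in P (adjusted p of 0.329 to 0.612) and 0.49 to 0.66 in NP (adjusted p of 0.467 to 0.569), and without the 2 farthest cows r was -0.04 to 0.83 in P and -0.68 to 0.64 in NP.

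The 10 genes outside the list whose values ran closest to the mean of the mitotic genes averaging 30 or more, over 12 cows, had r of 0.88 to 0.94. They were KIF4A, MCM5, KIFC1, DIAPH3, LMNB1, STAG3, CDCA3, USP1, TCEA3 and TRIP13, and 5 of these belong to a wider list of mitosis genes. All 10 had their highest value in P cow 1 among the P cows, as with KIF4A at 83.1 normalized counts there, 19.8 at most in the other P cows and 14.8 at most in the NP cows. Their r was 0.62 to 0.89 without P cow 1, highest for MCM5 (0.89), a subunit of the replicative helicase, and KIFC1 (0.87), a spindle kinesin. The 10 closest genes over the 11 cows shared only MCM5 and KIFC1 with the first set.

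P cow 1 also differed in markers of other cells. Of 5 follicle markers, AMH was 611 normalized counts in P cow 1, 18.3 to 37.0 in the other P cows and 8.37 to 26.8 in NP cows. CYP17A1, the androgen-forming enzyme of theca cells, was 339 in P cow 1, 0 to 10.4 in the other P cows and 0 to 14.2 in NP cows, with no read in P cow 18 and NP cows 31 and 42. FSHR was 122 in P cow 1, 7.84 to 37.0 in the other P cows and 5.86 to 57.5 in NP cows. INHA, an inhibin subunit, was 1951 in P cow 1, 350.0 to 912 in the other P cows and 396 to 1252 in NP cows. CYP19A1, the aromatase of granulosa cells, was not high, at 40.7 in P cow 1, 41.8 to 73.3 in the other P cows and 23.6 to 52.5 in NP cows. The sum of the 5 was 3064 in P cow 1, 421 to 1032 in the other P cows and 489 to 1343 in NP cows, and none of the 5 differed between P and NP past the test. The summed pericyte and smooth muscle markers (8 genes) were the highest of 12 cows in P cow 1, at 14666, and the summed endothelial markers (9 genes) the lowest, at 8626. The part of these cells in the high mitotic values of P cow 1 was not tested.

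**Figure D5:**
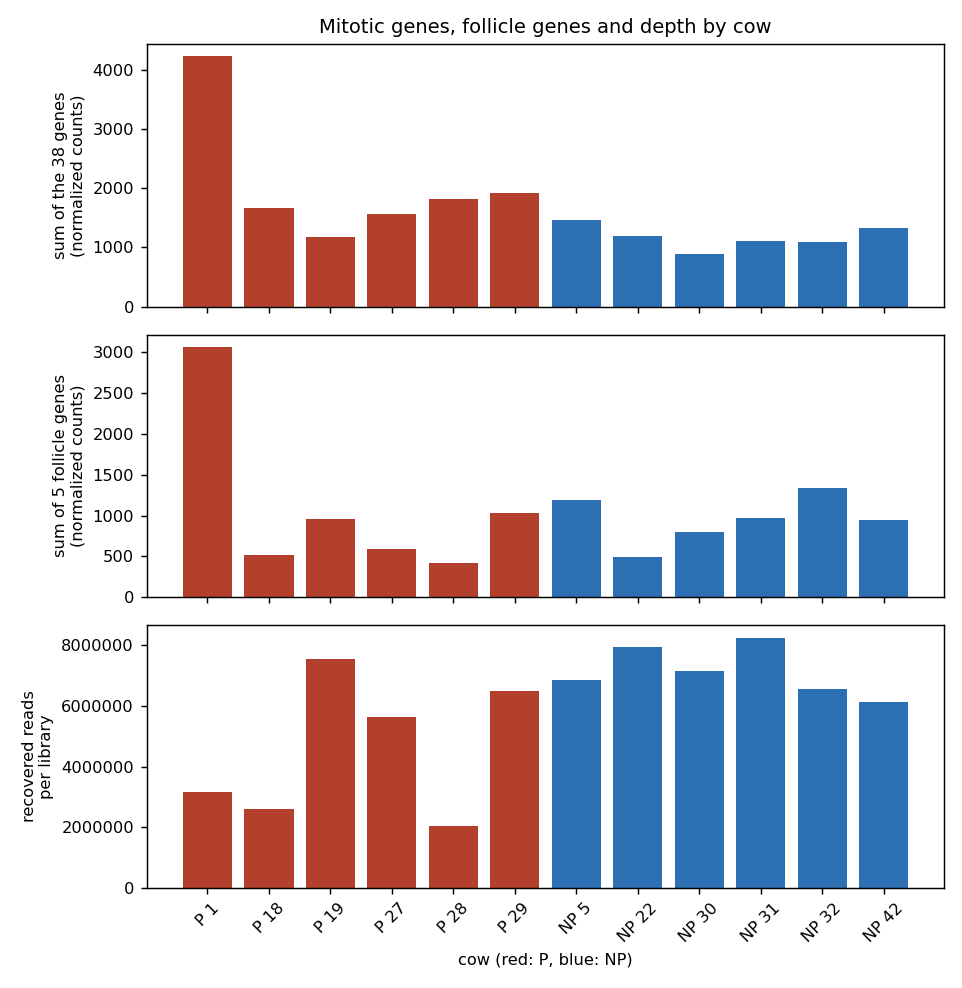
Bars for each of the 12 cows (P red, NP blue) of the summed normalized counts of the 38 mitotic genes (top), of 5 follicle markers (middle) and of the recovered reads per library (bottom). P cow 1 is highest in the top panel (4228) and the middle panel (3064), while its library, at 3152328 reads, is one of the 3 shallowest.

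Some markers of other cells were also called between the groups, where 12% of all tested genes were higher in P and 14.8% lower. Over 9 endothelial markers the summed level was 8626 to 19345 in P and 9814 to 16508 in NP, with ENG higher in P and PECAM1 and CDH5 lower. Over 8 pericyte and smooth muscle markers it was 5573 to 14666 in P and 5259 to 13530 in NP, with CNN1 and MYH11 higher and MCAM, PDGFRB and CSPG4 lower. Of 7 tested leukocyte markers, CD3E and NKG7 of T and NK cells were higher in P and none was lower, with sums of 526 to 950 in P and 354 to 720 in NP. Over 6 fibroblast markers the sum was 30507 to 72012 in P and 32737 to 80301 in NP, with PDGFRA higher and LUM lower. Of 6 tested luteal markers, PTGFR, the receptor of prostaglandin F, was lower in P, with a log2 fold change of -1.79. None of the 6 was higher, and 3 had a log2 fold change above 0. HBB, the only red blood cell marker tested, was higher, with a log2 fold change of 1.31. It was low, at 10.4 to 39.5 normalized counts in P and 2.46 to 15.1 in NP, and reached the minimum for testing only in P cows. None of the 7 tested macrophage markers was called in either direction. P cow 1, with the highest mitotic sum, had the lowest leukocyte sum of the P cows (526) and the lowest macrophage sum of the P cows (736). The part of these cell types in the mitotic genes was not tested.

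Beyond the 38, a wider list held 61 other tested mitosis genes. Of these, 16 were higher in P and 4 lower (limma), with a median log2 fold change of 0.54, where 12% of all tested genes were higher and 14.8% lower. KNTC1, SKA1, SPAG5, CIT, SPC24 and CDCA3, all among the 16, reached the minimum for testing only in P cows. With no minimum, 17 of 76 genes were higher and 4 lower, against 9.55% of 15178 genes higher. BORA, the cofactor by which AURKA activates PLK1, averaged 184 ± 38.5 normalized counts in P and 91.0 ± 20.4 in NP (SD, n = 6 each), with no overlap and a log2 fold change of 1.02 (limma, SE 0.19, adjusted p = 0.00184). The condensin subunit NCAPD2 (285 ± 69.2 in P and 166 ± 19.3 in NP) and KNTC1 of the kinetochore (41.8 ± 11.3 in P and 18.4 ± 4.17 in NP) were also higher and without overlap. NCAPD2, NCAPD3, NCAPG, NCAPH2 and SMC4, all subunits of the condensins that compact chromosomes, were among the 16, as were INCENP, the scaffold of AURKB, and CIT and CEP55 of the midbody. The other condensin subunits of the list, SMC2, NCAPH and NCAPG2, were not called. Their log2 fold changes were -1.25, 0.54 and 0.26 (limma adjusted p = 0.0721, 0.387 and 0.474). BUB3, a checkpoint protein that anchors BUB1 and BUB1B, was lower, at 324 ± 42.1 in P and 493 ± 63.4 in NP, with a log2 fold change of -0.60 (limma, SE 0.13, adjusted p = 0.00341). The other 3 lower genes were TUBA1C, ZWINT and SKA2, of which TUBA1C has near-identical tubulin copies that can share its reads. Without P cow 1 the counts were 13 higher and 3 lower, where 10.9% of all genes were higher. They were 3 higher and 3 lower without P cows 1, 18 and 28, where 4.01% of all genes were higher. With library total as a covariate they were 0 and 0, where 1.53% of all genes were higher.

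Of 14 tested subunits of the anaphase-promoting complex, ANAPC4 and CDC16 were higher in P and none lower. Over all tested genes, 12% were higher and 14.8% lower. ANAPC15, ANAPC2 and ANAPC5 had limma adjusted p values of 0.0112, 0.0231 and 0.0263, with log2 fold changes of 0.55, 0.47 and 0.54, under the fold minimum. With limma none of the 14 passed without P cow 1, P cow 18 or NP cow 22, while 2 were higher with edgeR and 2 with DESeq2 when P cow 1 was left out.

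Few genes of the earlier phases of the cycle were called in either direction, set against 12% of all tested genes higher and 14.8% lower. Of 12 tested genes of the G1 to S transition none was higher in P, and E2F3, an activator of S phase genes, was lower, at 21.4 ± 2.07 in P and 35.6 ± 9.62 in NP (SD, n = 6 each). E2F3 reached the minimum for testing only in NP cows. CDK4, the kinase of the D cyclins, was at 1083 ± 80.3 in P and 767 ± 129 in NP without overlap, and its log2 fold change of 0.51 (limma, SE 0.13, adjusted p = 0.00748) was under the fold minimum. CCND3, a D cyclin, and RB1, the repressor that the D cyclin kinases inactivate, did not pass (limma adjusted p = 0.0842 and 0.115). Of 30 tested DNA replication genes 2 were higher and 3 lower, and 19 had a log2 fold change above 0. CDC45 and RRM2 were higher, with log2 fold changes of 0.71 for CDC45 and 1.03 for RRM2, and both had their highest value in P cow 1. With limma no replication gene was called higher when P cow 1, 28 or 29 or NP cow 22, 30, 31 or 32 was left out, while DESeq2 called 2 higher without P cow 1. RFC3 and RFC1, of the clamp loader, and MCM6, of the helicase, were lower, with log2 fold changes of -0.75, -0.74 and -0.65.

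Among 15 tested inhibitors and arrest genes, GADD45B and GADD45G, stress-induced genes that can inhibit CDK1, were higher in P. By comparison, 12% of all tested genes were higher and 14.8% lower. GADD45B averaged 2031 ± 431 in P and 1129 ± 423 in NP (SD, n = 6 each), with a log2 fold change of 0.91 (limma adjusted p = 0.00643), and GADD45G had a log2 fold change of 1.42 (limma adjusted p = 0.011). CCNG2, a cyclin linked to arrest, was lower, with a log2 fold change of -1.35 (limma adjusted p = 0.00826). Of 10 tested DREAM and MuvB genes, the complex that represses cell cycle genes in resting cells, RBL1 (p107) was lower, with a log2 fold change of -1.42 (limma adjusted p = 0.0124). RBL1 reached the minimum for testing only in NP cows. RBL2 (p130), the pocket protein of resting cells, averaged 215 ± 25.4 in P and 313 ± 49.5 in NP (SD, n = 6 each), with a log2 fold change of -0.53 under the fold minimum (limma adjusted p = 0.00728). LIN37 had a log2 fold change of 0.53, under the fold minimum, and E2F5 of -1.12 (limma adjusted p = 0.0516), so that neither was called.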

How the data were processed

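CL libraries of 12 cows, 6 P and 6 NP, were made from poly-A RNA. Per the study's methods, the authors used cutadapt for trimming, STAR (2.4.2a in the submitters' processing notes) for mapping to ARS-UCD1.2, htseq-count for counts of Ensembl genes and DESeq2 for testing. Whether counting used strand is not given in the sources used here. The signal values deposited by the authors are these counts scaled by DESeq2 size factors and rounded to 2 decimals. They cover 15178 genes, 1616 of them without a symbol. Columns with the authors' own fold changes and p-values were not used.

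Reads were recovered by dividing by the value of 1 read in the library, and at least 99.99% of values were whole within 0.0051. The test was limma 3.58.1 in R 4.3.3, with a trend of variance on mean, on log2(value + 1) of the genes that reached 30 in any cow. A call needed an adjusted p under 0.05 and a log2 fold change of 0.58 or more in either direction, after the study's thresholds. Each cow was 1 replicate. The test was checked on simulated data. Correlations used SciPy 1.17.1.

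The members and lists were chosen with earlier results of these data known. Values in every cow are given for members past the test, MKI67, MYBL2, CCNB1, CDK1, FOXM1 and TOP2A are given in any case, and each of the other lists is represented by up to 4 genes of smallest p and by its counts. Genes beyond these were named after their values were seen. The result of 1 tested gene of these lists is not reported here. The nearest genes were the 10 with the highest r to the members' mean. Alternatives were edgeR 4.0.16 with TMM and DESeq2 1.42.0 on recovered reads, pseudocounts of 0.5 and 5, no minimum and a minimum of 60, thinning to the smallest library, library total as a covariate, leaving out P cows 1, 18 and 28, and leaving out each cow. Chosen after the data were seen were edgeR and DESeq2 without P cow 1, correlations without P cow 1 and thinned partner pairs. Intervals for single values were not computed, and limits given for a count of 0 cover counting error only.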

Additional observations from a re-analysis of the deposited data

Results flagged for a closer look

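In each group of 6 cows, the gap between the highest or lowest value and its nearest neighbour was set against the whole range of the group on the log2 scale and compared with Dixon's limit. Of 76 groups, 5 had such a cow, and chance gives about 1 in 20 groups. BUB1 was 125.42 normalized counts in P cow 1, where the next P cow had 39.07, and KIF2C was 50.49 in P cow 1, where the next had 12.86. The other 3 were in NP cows. CDC25B was 84.76 in NP cow 5, above all other NP cows, PLK1 was 62.15 in NP cow 22, below all others, and PRC1 was 20.54 in NP cow 30, below all others.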

How the results depend on the processing

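No member was lower in P under any setting run. The 7 members higher in P became 10 with edgeR, 12 with DESeq2, 6 after thinning, 4 with edgeR without P cow 1, 6 with DESeq2 without P cow 1, 1 without P cows 1, 18 and 28, and 0 with library total as a covariate, and 4 to 12 when 1 cow was left out. Leaving out P cow 19 gave 12, and leaving out P cow 1 or NP cow 31 gave 4. The median log2 fold change stayed between 0.38 and 0.71. The 22 genes of the other lists called higher in P became 0 with the covariate and 4 without P cows 1, 18 and 28, and 16 to 32 when 1 cow was left out. The 10 called lower became 2 with the covariate and 6 without the 3 cows, and 6 to 11 when 1 cow was left out, with 6 without NP cow 22. The cause was not tested. Directions of 7 members, none past the test, reversed. With edgeR without P cow 1 the log2 fold change was -0.10 for TOP2A, -0.11 for CENPE, -0.23 for CDC20, -0.08 for TPX2, -0.43 for KIF2C and -0.08 for RACGAP1, and with DESeq2 without P cow 1 it was -0.09, -0.10, -0.24, -0.06, -0.41 and -0.06 for the same genes. Leaving out 1 cow gave -0.05 to 0.57 for TOP2A, -0.13 to 0.46 for CENPE, -0.32 to 0.46 for CDC20, -0.07 to 0.28 for TPX2, -0.16 to 0.49 for KIF2C and -0.08 to 0.13 for RACGAP1, each lowest without P cow 1. CDC20 was also -0.03 without P cow 27 and -0.12 without NP cow 30 or 32, and RACGAP1 -0.03 without P cow 29 and -0.05 without NP cow 30. Without P cows 1, 18 and 28 CENPE was -0.03 and KIF2C -0.28. With the covariate KIF2C was -0.06 and DLGAP5 0.17. After thinning RACGAP1 was -0.02. DLGAP5 was 0.32 with edgeR and 0.34 with DESeq2. No partner pair passed after thinning. No paired analysis was possible because the groups share no cow number. Where a gene had under 10 reads in a library, a change near the fold minimum may have gone undetected at this depth.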
